A study of Mus musculus with 12 samples.

Results

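The genes of lymphocyte egress and recirculation, Klf2, Klf3, Foxo1, S1pr1, S1pr4, Bcl6 and Foxp1, were followed through single-cell libraries of γδ T cells and their thymic precursors from WT and GFI1 KO mice. The 7 genes were taken by name from the 33696 genes listed, and all 7 passed the filter on low counts that left 14921 genes for testing. The mice were adult germline GFI1 KO animals and their WT controls on a C57BL6/J background. From them 3 compartments were sorted, namely splenic CD3+ CD4neg γδ T cells, thymic CD8neg CD4neg γδ T cells, and thymic CD4 and CD8 negative precursors of stages DN1 to DN3. Per the submitters' design text, thymic γδ T cells and DN1-DN3 cells came from the same mice, although in KO replicate 1 the cells with Y-linked UMIs and no Xist were 2086 of 6795 in the one and 468 of 6990 in the other. Each compartment had 2 pools, and in each pool WT and KO cells carried 1 hashtag each and ran together, so that 12 libraries resulted with 2 per genotype and compartment. How many mice went into a library is not given in the sources used here. The p-values therefore measure the spread between the 2 libraries of a group, shared over all 6 groups in 1 fit, and it may be technical. The KO was germline and so not confined to T cells.

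Lymphocytes leave the thymus and lymphoid organs along a gradient of sphingosine 1-phosphate (S1P), which they sense through the receptor S1PR1, while S1PR4 is a related receptor of lymphocytes. FOXO1, a transcription factor held outside the nucleus by AKT signalling, drives KLF2, and KLF2 in turn drives S1pr1. KLF3 is a repressor of the same family that binds the CACCC boxes KLF2 uses, FOXP1 is a forkhead factor that keeps naive T cells quiescent and competes with FOXO1 at shared targets, and BCL6 is a zinc finger repressor known for follicular helper T cells and for opposing Prdm1. GFI1 is itself a zinc finger repressor whose binding sites hold an AATC core.

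RefSeq promoter windows (GRCm38.p6, 250 bases before to 50 after the start) were found for 6 of the 7 genes, in 9 windows. S1pr1 had no entry. Those of 5 genes are shown because they carry the letters bound by the factors compared here: Klf2 and Klf3 for the CACCC box, Foxo1 and S1pr4 for the GFI1 core AATC, and Bcl6, which changed most in the spleen, for the palindrome TTCNNNGAA bound by BCL6 itself. Capitals mark these letters on either strand, so that AATC also appears as GATT and CACCC as GGGTG.
Klf2, chr8:72318812-72319111, + strand, CACCC: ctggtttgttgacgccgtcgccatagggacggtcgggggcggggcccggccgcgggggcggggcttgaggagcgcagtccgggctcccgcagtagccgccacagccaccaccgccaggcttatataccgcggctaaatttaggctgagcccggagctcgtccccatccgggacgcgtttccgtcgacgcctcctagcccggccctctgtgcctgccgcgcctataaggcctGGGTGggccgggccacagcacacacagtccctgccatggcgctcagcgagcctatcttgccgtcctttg
Klf3, chr5:64803271-64803570, + strand, CACCC: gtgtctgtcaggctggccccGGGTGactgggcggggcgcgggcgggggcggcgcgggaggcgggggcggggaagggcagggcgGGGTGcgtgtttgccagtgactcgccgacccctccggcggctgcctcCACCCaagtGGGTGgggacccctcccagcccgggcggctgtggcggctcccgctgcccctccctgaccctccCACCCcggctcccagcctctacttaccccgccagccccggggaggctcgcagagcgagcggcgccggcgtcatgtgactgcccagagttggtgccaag
Foxo1, chr3:52268087-52268386, + strand, AATC: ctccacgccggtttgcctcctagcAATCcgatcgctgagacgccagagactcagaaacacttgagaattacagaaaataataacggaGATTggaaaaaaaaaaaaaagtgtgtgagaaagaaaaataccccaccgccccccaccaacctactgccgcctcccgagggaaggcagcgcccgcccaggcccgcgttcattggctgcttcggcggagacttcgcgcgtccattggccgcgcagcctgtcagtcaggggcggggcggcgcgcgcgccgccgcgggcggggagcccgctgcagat
S1pr4, chr10:81500088-81500387, - strand, AATC: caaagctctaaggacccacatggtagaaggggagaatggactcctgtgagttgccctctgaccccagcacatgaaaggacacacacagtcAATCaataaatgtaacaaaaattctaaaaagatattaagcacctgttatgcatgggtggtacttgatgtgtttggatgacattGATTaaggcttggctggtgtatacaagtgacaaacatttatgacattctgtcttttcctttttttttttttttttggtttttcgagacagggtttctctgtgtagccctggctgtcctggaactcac
Bcl6, chr16:23981234-23981533, - strand, TTCNNNGAA: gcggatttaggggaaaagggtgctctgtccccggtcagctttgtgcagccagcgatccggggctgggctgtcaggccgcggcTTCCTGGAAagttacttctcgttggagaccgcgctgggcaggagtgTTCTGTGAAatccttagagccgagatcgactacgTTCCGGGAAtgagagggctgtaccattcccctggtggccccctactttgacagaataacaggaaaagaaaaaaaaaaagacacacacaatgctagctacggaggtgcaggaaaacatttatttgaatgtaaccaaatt
The Klf3 window held 5 CACCC boxes and the Klf2 window 1. The Foxo1 and S1pr4 windows each held 2 AATC cores. The Bcl6 window shown held 3 palindromes, and a second Bcl6 window at chr16:23988803-23989102 held 1. The letters were not particular to the windows in which they are marked, since the Bcl6 window shown also held 2 AATC cores and 1 CACCC box, the S1pr4 window 1 CACCC box, and the 3 Foxp1 windows up to 2 AATC cores and up to 3 CACCC boxes each. Of 32851 promoters, 57.5% held CACCC, 73.1% held AATC and 8.30% held TTCNNNGAA, so the first pair of motifs is common in any window of this length. A match is a run of letters and not a measured binding site.

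The 12 libraries held 96911 kept cells, with 6795 to 11679 cells, 42091895 to 71663962 UMIs (unique molecular identifiers, which count molecules) and a median of 4947 to 6853 UMIs per cell in each. Libraries shared at most 34 barcodes with another and none within a pool. Gfi1 itself, counted from the 3′ end, did not fall in the libraries labelled KO, where it ranged from 18.1 to 70.6 counts scaled to 1000000 UMIs per library (CPM) against 11.8 to 44.7 in WT. Which part of the gene the KO removes is not given in the sources used here, so this neither checks nor contradicts the labels. The T cell markers Cd3d, Cd3e and Cd3g summed to 2338 to 4530 CPM in every library. Of the 4 genes on the γδ T list, 1 was found under its listed name. This was Trdc, which ran from 1233 to 2051 CPM in γδ T libraries against 126 to 199 in DN libraries. Trgc1 and Trgc2 lay close in WT thymic γδ T (408 and 396, 537 and 510 CPM) and WT DN libraries (381 and 369, 508 and 498 CPM). Trgc4 was apart, at 448 and 428 against 194 and 195 CPM. The DN precursor list summed to 1207 to 1708 CPM in DN libraries and to no more than 213 elsewhere. Splenic libraries held almost no Xist whereas thymic ones held both Xist and Y-linked UMIs, so that the mix of sexes differed between the tissues. With thymic cells limited to those with Y-linked UMIs and no Xist, all 7 genes still differed between spleen and thymus in WT, and in KO 5 of the 6 called genes did. WT and KO libraries also differed in their mix of cells, as the share of Trgv6-called cells given further on shows. Markers of other cells moved with genotype too. The αβ T cell list summed to 1745 to 1806 CPM in WT and 993 to 1031 CPM in KO spleen and to 3175 to 3262 CPM in WT and 1303 to 1531 CPM in KO thymic γδ T libraries, and the B cell list to 222 to 442 CPM in WT and 63.2 to 120 CPM in KO spleen. Most of the αβ sum was Trbc1 and Trbc2, and thymic Trac was at 62.9 and 54.3 CPM in WT and 51.2 and 51.5 CPM in KO. The splenic B sum was mostly Ighm (411 and 195 CPM in WT, 67.6 and 10.5 CPM in KO). Cd79b was higher in the KO spleen (50.9 and 50.8 CPM) than in WT (27.9 and 23.7 CPM). The sums by themselves thus do not show that cells of these kinds changed in number. In the spleen Cd8b1 was at 112 and 100.1 CPM in WT and 5.38 and 4.40 CPM in KO. In DN libraries the αβ T cell list summed to 2082 to 2160 CPM in WT and 1989 to 2029 CPM in KO, although Trac within it was at 18.8 and 20.7 CPM in WT and 154 and 65.6 CPM in KO. The B cell list there summed to 115 to 122 CPM in WT and 136 to 264 CPM in KO, and the NK and innate lymphoid list to 6.02 to 7.41 CPM in WT and 14.3 to 21.3 CPM in KO. No KO call of the 7 genes changed without barcodes of the B lineage, while the part of αβ T, NK and innate lymphoid cells in the differences was not tested. A level summed over a library therefore cannot tell fewer cells of a kind from less RNA per cell, and the genes are compared within classes of cells further on.

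**Figure D1:**
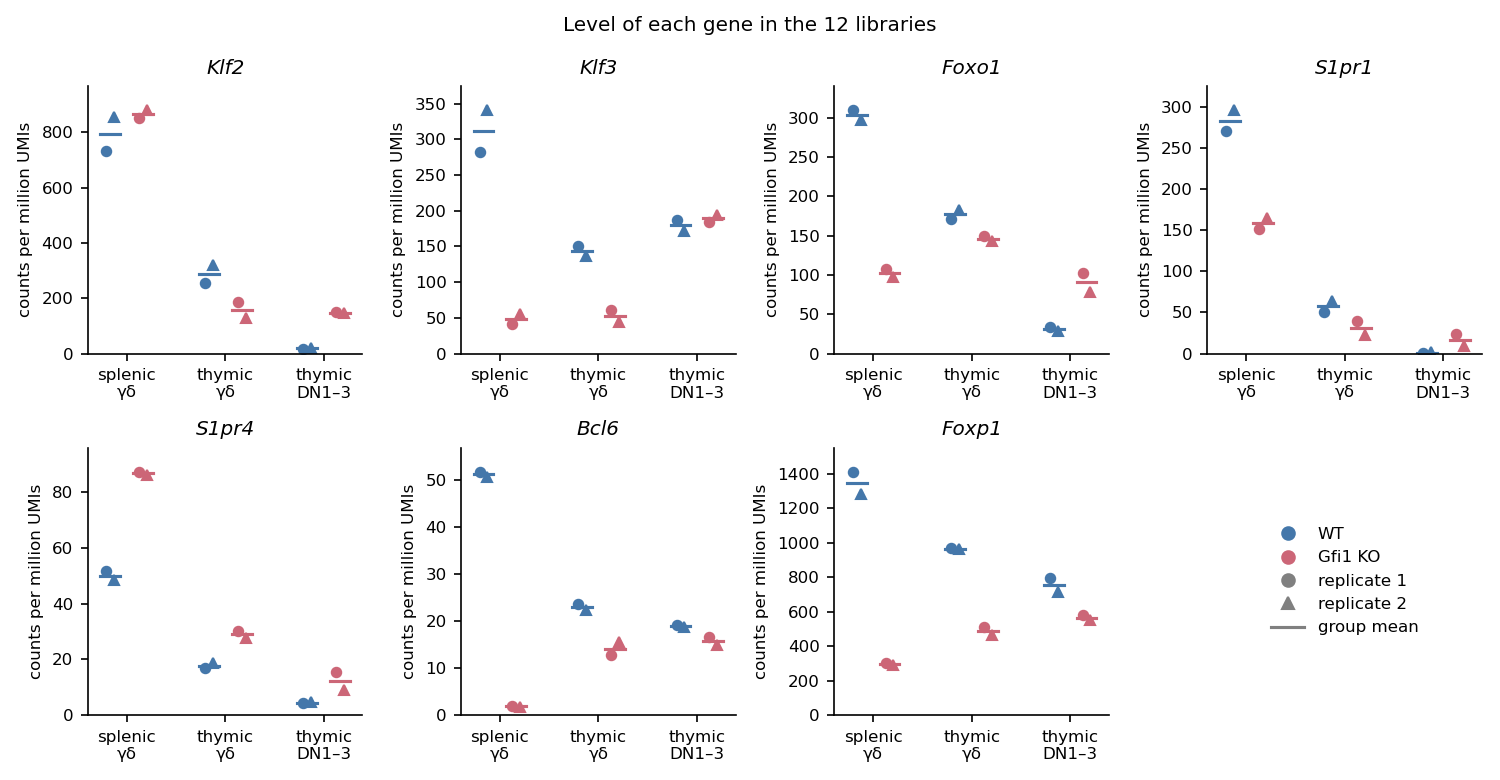
Level of each gene, in CPM, in all 12 libraries, with circles for replicate 1, triangles for replicate 2, blue for WT, red for KO and a bar for the mean of each group. Bcl6 lies at 51.6 and 50.6 CPM in the WT spleen and below 2 CPM in the KO spleen, while Klf2 runs from 734 to 880.1 CPM in the 4 splenic libraries.

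In the spleen, 5 of the 7 genes differed between KO and WT, against 54.7% of all genes tested, and 5 of 7 did in thymic γδ T cells, against 49.7%. In DN1-DN3 cells 5 of 7 differed, against 23.0% of all genes. The directions were split alike in both γδ T compartments, with 1 gene higher and 4 lower, but in DN1-DN3 cells 4 were higher and 1 lower. In γδ T cells the share called among the 7 genes, 5 of 7, is not far from that of all genes.

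Foxo1, at the head of the axis, stood at 309.6 and 297 CPM in the WT spleen and at 107 and 97.8 CPM in the KO spleen. It stood at 172 and 183 CPM in WT and 149.7 and 143 CPM in KO thymic γδ T cells. In DN1-DN3 cells it stood at 33.3 and 28.2 CPM in WT and 102 and 78.9 CPM in KO. Foxo1 was 2.77-fold lower in the KO spleen and 2.93-fold higher in KO DN cells, and the libraries of the 2 genotypes did not overlap in any compartment. The log2 differences were -1.47 ± 0.11 (SE, adjusted p = 2.4e-06) in the spleen, -0.15 ± 0.11 (adjusted p = 0.26) in thymic γδ T cells and 1.55 ± 0.11 (adjusted p = 2.2e-05) in DN1-DN3 cells. In thymic γδ T cells it passed without cycling cells (-0.60, adjusted p = 0.0016) and with each cell thinned to 2500 UMIs (-0.42, adjusted p = 0.010).

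Klf2 showed no detectable difference in the spleen. Its level there was 734 and 857 CPM in WT and 851 and 880.1 CPM in KO, and the groups overlapped. In thymic γδ T cells it was 255 and 320 CPM in WT and 187 and 129 CPM in KO. In DN1-DN3 cells it was 17.5 and 21.4 CPM in WT and 151 and 145 CPM in KO, a rise of 7.59-fold. The log2 differences were 0.22 ± 0.18 in the spleen (95% confidence interval -0.18 to 0.61, adjusted p = 0.32), -0.75 ± 0.18 in thymic γδ T cells (adjusted p = 0.0057) and 2.92 ± 0.19 in DN1-DN3 cells (adjusted p = 1.3e-05). With library totals in place of scaling factors, which moved the median of all genes in the spleen to -0.22, the splenic difference became -0.01. The thymic call was lost without WT replicate 2 (-0.58, adjusted p = 0.062) or KO replicate 2 (-0.54, adjusted p = 0.055), and the difference was larger without cycling cells (-1.46, adjusted p = 0.00013) and with thinned cells (-1.18, adjusted p = 0.00027).

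S1pr1, the egress receptor, was at 269.9 and 295 CPM in the WT spleen and at 152 and 165 CPM in the KO spleen. In thymic γδ T cells it was at 50.1 and 64.4 CPM in WT and at 39.7 and 22.7 CPM in KO. In WT DN1-DN3 cells it was close to absent at 0.94 and 1.24 CPM, and in KO DN1-DN3 cells it reached 23.6 and 9.24 CPM. The KO libraries were lower than the WT libraries of the same tissue in both γδ T compartments and higher in DN cells, without overlap. The rise in DN1-DN3 cells, 3.88 ± 0.43 on the log2 scale, passed the test (adjusted p = 0.00029), although the 2 KO libraries themselves differed by more than 2 times. The differences in the spleen (-0.74 ± 0.34, interval -1.50 to 0.01, adjusted p = 0.088) and in thymic γδ T cells (-0.76 ± 0.34, adjusted p = 0.091) did not pass. Both passed with DESeq2 (adjusted p = 0.041 and 0.037), when the 4 libraries of each comparison were fitted alone (adjusted p = 0.00011 and 0.047) and without cycling cells (-0.83, adjusted p = 0.043, and -1.52, adjusted p = 0.0037). The splenic one also passed with library totals (-0.97, adjusted p = 0.035) and the thymic one with thinned cells (-1.29, adjusted p = 0.015).

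Summed over whole libraries, S1pr4 was the one gene of the group that was higher in KO in every compartment. It was measured at 51.5 and 48.6 CPM in WT and 87.3 and 86.2 CPM in KO spleen. The thymic γδ T values were 16.7 and 18.6 CPM in WT and 30.1 and 27.7 CPM in KO. Those of DN1-DN3 cells were 4.19 and 4.78 CPM in WT and 15.4 and 9.06 CPM in KO. The genotypes did not overlap, and the log2 differences were 0.89 ± 0.17 (adjusted p = 0.0014), 0.83 ± 0.17 (adjusted p = 0.0026) and 1.43 ± 0.18 (adjusted p = 0.00061). This was not seen in cells whose leading Trgv gene was Trgv6, where S1pr4 was at 103.7 CPM in WT and 86.1 CPM in KO spleen (-0.31 ± 0.15, adjusted p = 0.22) and at 34.4 and 31.8 CPM in the thymus (-0.01 ± 0.31, adjusted p = 0.99). The limits of this class are given further on.

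Klf3, the repressor, was at 282 and 341 CPM in the WT spleen and at 41.9 and 55.7 CPM in the KO spleen, a fall of 5.99-fold. In thymic γδ T cells it was at 151 and 137 CPM in WT and at 61.3 and 43.8 CPM in KO. DN1-DN3 cells had 188 and 172 CPM in WT and 184 and 195 CPM in KO, and there the genotypes overlapped. The log2 differences were -2.58 ± 0.17 (adjusted p = 1.2e-06), -1.34 ± 0.16 (adjusted p = 9.8e-05) and 0.08 ± 0.16 (interval -0.27 to 0.43, adjusted p = 0.75). The DN difference took either sign, from -0.34 without cycling cells upward. DN cells with a Cd24a UMI had Klf3 at 169 and 157 CPM in WT and 235 and 197 CPM in KO, and those without one at 240 and 216 CPM in WT and 144 and 192 CPM in KO, so that the order of the genotypes was opposite in the 2 classes, which was not tested. The thymic difference was -2.06 without cycling cells.

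Foxp1 ran at 1411 and 1284 CPM in the WT spleen and 300.3 and 291 CPM in the KO spleen. In thymic γδ T cells it ran at 967 and 962 CPM in WT and 512 and 467 CPM in KO, and in DN1-DN3 cells at 796 and 716 CPM in WT and 580.2 and 549 CPM in KO. It was lower in KO libraries of every compartment, by 4.27-fold in the spleen, 1.81-fold in thymic γδ T cells and 1.34-fold in DN1-DN3 cells, and the log2 differences were -2.09 ± 0.10 (adjusted p = 1.8e-07), -0.86 ± 0.09 (adjusted p = 5.4e-05) and -0.42 ± 0.09 (adjusted p = 0.010). The DN call was lost with only the DN libraries in the fit (adjusted p = 0.13) and among cells with Y-linked UMIs and no Xist (-0.30, adjusted p = 0.22), which were 25.3% and 31.5% of the WT and 6.7% and 21.3% of the KO DN libraries.

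Bcl6 showed the deepest fall of the 7 genes. Its level in the spleen was 51.6 and 50.6 CPM in WT but 1.92 and 1.77 CPM in KO (-4.70 ± 0.14, adjusted p = 2.4e-08), where it was so low that it cannot be told from free RNA. The size of every Bcl6 difference that uses the KO splenic level, also within classes of cells, is therefore uncertain. In thymic γδ T cells Bcl6 was at 23.7 and 22.4 CPM in WT and 12.8 and 15.5 CPM in KO (-0.58 ± 0.11, adjusted p = 0.0018). In DN1-DN3 cells it was 19.1 and 18.8 CPM in WT and 16.6 and 14.8 CPM in KO (-0.27 ± 0.11, adjusted p = 0.11). The genotypes did not overlap in any compartment, but the DN difference passed the test only without cycling cells (-0.69, adjusted p = 0.0011) or with each cell thinned to 2500 UMIs (-0.59, adjusted p = 0.011). The thymic call was lost among cells that carried Y-linked UMIs and no Xist (-0.74, adjusted p = 0.17).

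**Figure D2:**
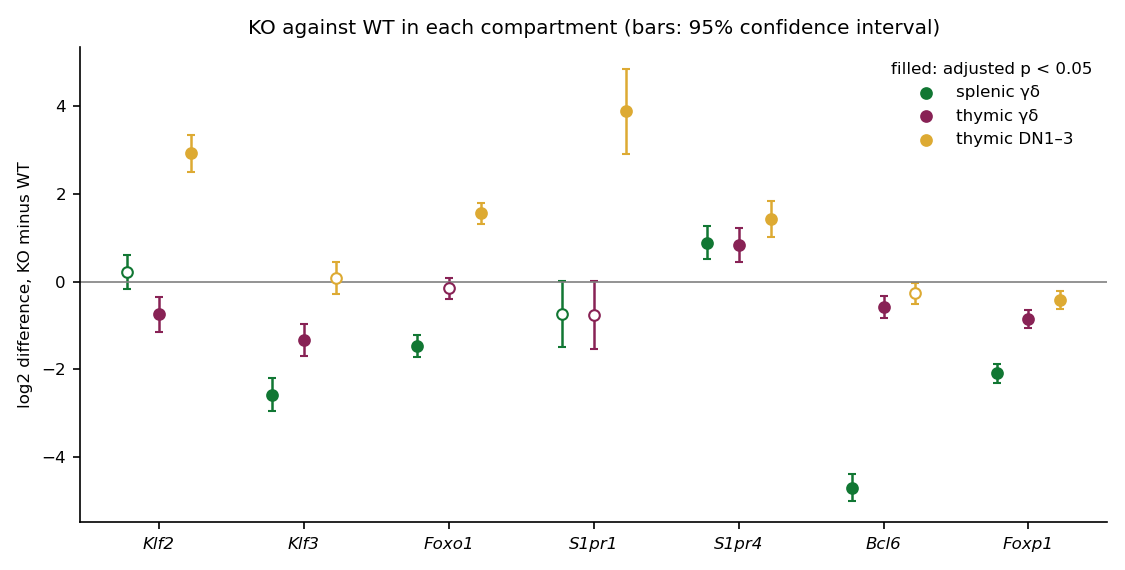
Difference between KO and WT on the log2 scale, with its 95% confidence interval, for each gene in splenic γδ T cells (green), thymic γδ T cells (purple) and DN1-DN3 cells (yellow), where filled points passed an adjusted p of 0.05. Klf2, Foxo1 and S1pr1 lie far above 0 in DN cells at 2.92, 1.55 and 3.88, S1pr4 lies above 0 throughout, and Bcl6 reaches -4.70 in the spleen.

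Between tissues, WT γδ T cells of the thymus had less of every one of the 7 genes than those of the spleen. All 7 passed the test, against 48.8% of all genes in either direction and 23.0% that were lower. The difference was widest for S1pr1 at -2.38 ± 0.35, followed by S1pr4 at -1.58 ± 0.17 and Klf2 at -1.55 ± 0.18. It was smaller for Bcl6 (-1.23 ± 0.11), Klf3 (-1.19 ± 0.16), Foxo1 (-0.85 ± 0.11) and Foxp1 (-0.56 ± 0.09), the last of which no longer passed without cycling cells (-0.28, adjusted p = 0.074).

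In KO γδ T cells the tissue difference went both ways. Of the 7 genes 6 passed, against 36.6% of all genes, with 3 lower and 3 higher in the thymus. The receptors and Klf2 were again lower in the thymus, S1pr1 at -2.40 ± 0.36, Klf2 at -2.51 ± 0.19 and S1pr4 at -1.64 ± 0.17. Bcl6 (2.89 ± 0.13), Foxp1 (0.67 ± 0.09) and Foxo1 (0.46 ± 0.11) were higher in the KO thymus than in the KO spleen, where in WT they had been lower. The size for Bcl6 rests on a KO splenic level that cannot be told from free RNA. Klf3 did not differ beyond the spread (0.05 ± 0.16, interval -0.31 to 0.41). The Foxo1 call was lost without spleen KO replicate 2 (0.37, adjusted p = 0.070) and among cells with Y-linked UMIs and no Xist (0.42, adjusted p = 0.068).

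Whether the KO difference in summed level departed between the 2 tissues was tested directly as the splenic KO difference minus the thymic one. In this test 5 of 7 genes passed, against 29.6% of all genes. The contrast does not separate the level within cells from the mix of cells, which differed between WT and KO libraries. Bcl6 had the widest gap at -4.12 ± 0.17, that is, it fell much further in the spleen, to a KO level that cannot be told from free RNA. Foxo1 (-1.32 ± 0.15), Klf3 (-1.25 ± 0.23) and Foxp1 (-1.24 ± 0.13) also fell further in the spleen. Klf2 differed the other way (0.96 ± 0.25, adjusted p = 0.017), but this call was lost without spleen WT replicate 1 (0.85, adjusted p = 0.067), thymus WT replicate 2 (0.74, adjusted p = 0.10) or thymus KO replicate 2 (0.75, adjusted p = 0.053). The Klf3 call was lost without cycling cells (-0.59, adjusted p = 0.16) and among cells with Y-linked UMIs and no Xist (-0.99, adjusted p = 0.25). For S1pr1 (0.02 ± 0.48, interval -1.05 to 1.09) and S1pr4 (0.06 ± 0.24, interval -0.48 to 0.59) no difference between the tissues was detected, and the first interval is wide. In Trgv6-called cells, which numbered 41 and 57 in the WT thymic libraries, the gap was -0.08 ± 0.20 for Foxo1, 0.57 ± 0.46 for Klf3 and -0.16 ± 0.24 for Foxp1, and none of the 3 passed (adjusted p = 0.90, 0.62 and 0.82). In Trgv1-called cells the gap was -1.41 ± 0.16 for Foxo1, -1.78 ± 0.22 for Klf3 and -1.22 ± 0.14 for Foxp1, and all 3 passed (adjusted p = 6.9e-05, 0.00011 and 7.4e-05).

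Along the thymic axis, WT γδ T cells had higher levels of S1pr1, Klf2, Foxo1 and S1pr4 than WT DN1-DN3 cells. In WT 6 of 7 genes passed, all of them higher in γδ T cells, against 47.2% of all genes. S1pr1 was higher by 5.73 ± 0.45 on the log2 scale, over a level in WT DN cells so low that it cannot be told from free RNA, Klf2 14.9-fold (3.90 ± 0.20), Foxo1 5.86-fold (2.55 ± 0.11) and S1pr4 3.98-fold (1.99 ± 0.18). The differences of Foxp1 (0.37 ± 0.09) and Bcl6 (0.30 ± 0.11, adjusted p = 0.046) were small and Klf3 went the other way without passing (-0.30 ± 0.16), though it passed with just the thymic γδ T and DN libraries fitted (-0.29, adjusted p = 0.020). The Bcl6 call was lost without any one of the 4 libraries, with adjusted p from 0.11 to 0.21, and turned to -0.15 without cycling cells. That of Foxp1 was lost without thymus WT replicate 1 (adjusted p = 0.055) or 2 (adjusted p = 0.066).

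In KO mice 4 of 7 genes differed between thymic γδ T and DN1-DN3 cells, against 57.3% of all genes. Klf2 did not differ beyond the spread there (0.23 ± 0.18, interval -0.17 to 0.62), whereas S1pr4 (1.40 ± 0.18) and Foxo1 (0.84 ± 0.11) were higher in γδ T cells and Klf3 was 3.28-fold lower there (-1.71 ± 0.16). Bcl6 passed without cycling cells, lower in γδ T cells (-0.41, adjusted p = 0.0089). S1pr1 was higher by 1.08 ± 0.35 (adjusted p = 0.024), a call that was lost without thymus KO replicate 1 (0.68, adjusted p = 0.21) or DN KO replicate 2 (0.55, adjusted p = 0.17), without cycling cells (0.47, adjusted p = 0.26), with thinned cells (0.58, adjusted p = 0.22), and, at 0.91 to 1.07, with library totals (adjusted p = 0.0505), without a filter (adjusted p = 0.095) and with only its own libraries (adjusted p = 0.13). The KO difference in DN1-DN3 cells minus that in thymic γδ T cells, a comparison added after these values were seen, passed for 5 genes, against 21.9% of all genes. It was 4.65 ± 0.55 for S1pr1, 3.67 ± 0.26 for Klf2, 1.71 ± 0.15 for Foxo1, 1.42 ± 0.23 for Klf3 and 0.44 ± 0.13 for Foxp1. The Foxp1 value was lost in 6 of 8 fits that left out 1 library, namely each thymic library and each DN WT library, with adjusted p from 0.056 to 0.13.

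The KO difference in DN cells was also read within 1 stage. Cells with UMIs of both Ptcra and Il2ra, which mark the DN3 stage, had Klf2 at 7.66 and 7.96 CPM in WT and at 104 and 109.7 CPM in KO. In these cells Foxo1 was at 31.5 and 24.2 CPM in WT and at 82.6 and 69.5 CPM in KO. S1pr1 rested there on 9 and 8 UMIs in WT and on 53 and 50 UMIs in KO. The DN3-stage differences came from a fit of the DN libraries alone, a setting under which the Foxp1 call was also lost in all DN cells. They were 3.79 for Klf2, 1.46 for Foxo1 and 3.04 for S1pr1, all past the threshold. Thus 3 of 7 genes were called there, against 14.0% of all genes. S1pr4 (0.56, adjusted p = 0.10) and Foxp1 (-0.23, adjusted p = 0.26) were not called. This subset was chosen after the values were seen.

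Shares of cells with a UMI were compared next. To compare libraries of different depth, each cell was thinned to 2500 UMIs, which 86.1% to 97.3% of cells reached. Klf2 was then detected in 76.0% and 80.8% of WT and 73.2% and 78.7% of KO splenic cells, in 37.4% and 44.0% of WT and 20.8% and 15.2% of KO thymic γδ T cells, and in 3.7% and 4.4% of WT and 22.1% and 21.95% of KO DN cells. Without thinning these shares were 82.9% and 86.3% against 84.5% and 89.9%, 54.9% and 62.0% against 30.2% and 21.7%, and 8.9% and 9.8% against 34.4% and 37.0%. In the spleen the KO mean minus the WT mean was 2.56 points unthinned, -2.40 at 2500 UMIs and 0.08 at 1500 UMIs. Its sign thus did not follow depth, and no change is read from it. Thinning to 2500 UMIs kept 89.3% and 86.7% of WT but 97.3% and 96.3% of KO splenic cells. S1pr1 was detected in 47.3% and 49.7% of WT and 29.4% and 32.4% of KO splenic cells, and in 12.5% and 16.3% of WT and 7.9% and 4.4% of KO thymic γδ T cells. In DN cells it was detected in 0.34% and 0.33% of cells in WT and in 6.5% and 2.8% in KO, and without thinning in 0.72% and 0.74% against 11.3% and 5.0%. Bcl6 was seen in 11.8% and 11.1% of WT but in 0.51% and 0.36% of KO splenic cells, and without thinning in 19.9% and 20.4% against 1.04% and 0.94%. WT and KO cells of a pool shared droplets of 1 run, so free RNA reaches both, and a share as low as that of S1pr1 in WT DN cells or of Bcl6 in the KO spleen cannot be told from it. In the spleen the mean share for Klf3 was 48.4% ± 4.3 (SD, n = 2) in WT and 10.6% ± 2.5 in KO, and for Foxp1 88.8% ± 0.33 and 47.7% ± 0.24. With 2 libraries against 2 an exact two-sided permutation test cannot go below p = 0.33, which all 35 comparisons of shares but 2 reached, and those 2 were Klf2 in the spleen and Klf3 between the KO tissues.

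Within each library, cells with a Klf2 UMI had an S1pr1 UMI more often than cells without one. This held in 12 of 12 libraries after thinning, by 2.36 to 21.6 percentage points with a median of 15.3. In the WT DN libraries just 21 and 22 thinned cells had S1pr1, a share that cannot be told from free RNA. In the KO spleen 34.8% and 35.4% of cells with Klf2 and 14.5% and 21.3% of cells without it had S1pr1. In the WT spleen the shares were 51.0% and 52.7% with Klf2 and 35.7% and 37.4% without. S1pr4 was likewise more frequent with Klf2 in 12 of 12 libraries, by 0.50 to 8.90 points, and Foxp1 with Klf3 in 12 of 12, by 2.70 to 17.5 points. Bcl6 and Klf2 showed no such order, since Klf2 was more frequent in cells with Bcl6 in only 4 of 12 libraries. With Foxo1, Klf2 was more frequent in 11 of 12 libraries, but the splenic differences were only 0.81, 0.19, 0.01 and -0.60 points. S1pr1 was more frequent with Foxo1 in 12 of 12, by 0.06 to 16.0 points, and Klf2 with Klf3 in 9 of 12. Pairs of other genes were not read, so whether such counts are unusual is not known. Cells of a library share its mix of cell types and are not replicates, so these shares are given without a test.

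**Figure D3:**
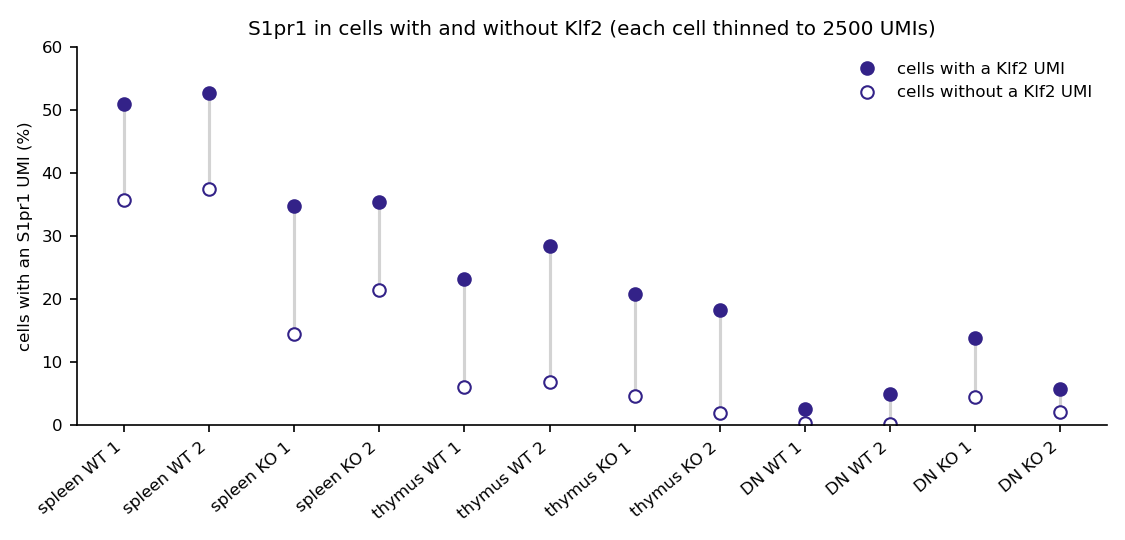
Percent of cells with an S1pr1 UMI among cells with a Klf2 UMI (filled) and without one (open) in each of the 12 libraries, each cell thinned to 2500 UMIs. The filled point lies above the open one in all 12 libraries, from 2.6% against 0.25% in DN WT replicate 1 to 52.7% against 37.4% in spleen WT replicate 2. S1pr1 in WT DN cells is too rare to be told from free RNA.

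Because WT and KO libraries differed in their mix of cells, the genes were compared within classes of cells defined without them. Cells whose leading Trgv gene was Trgv6 made up 2.2% of WT and 41.6% of KO splenic cells, and in the WT thymus the class held just 41 and 57 cells. The paper placed cells of its thymic Trgv6+ cluster in KO mice only. For the spleen it compared Trgv6+ cells of KO and WT mice in a test over cells, and listed all 7 genes as lower in KO. The paper also holds that 3′ reads do not capture TCR variable regions reliably. WT and KO cells of a pool shared 1 droplet run, so free RNA may put WT cells in this class. Whether its WT and KO members are cells of 1 kind was not tested. Between KO and WT splenic cells of the class Klf2 was not called here (-0.27 ± 0.31, adjusted p = 0.68). Of the 7 genes 5 were lower in KO in the spleen (11.7% of all genes) and 5 in the thymus (15.8%). In the spleen these included Bcl6 (-3.87 ± 0.49), Klf3 (-1.90 ± 0.24), Foxp1 (-1.10 ± 0.17) and Foxo1 (-0.78 ± 0.13), and S1pr1 (-0.78 ± 0.16, adjusted p = 0.0048), whose call was lost without WT replicate 2 (-0.69, adjusted p = 0.11) or KO replicate 1 (-0.74, adjusted p = 0.057). In the thymus S1pr1 was at 60.1 ± 2.1 CPM (SD, n = 2) in WT and 14.1 ± 5.2 CPM in KO (-2.001 ± 0.34, adjusted p = 0.0011). The thymic count fell to 2 without WT replicate 1 or 2. Between tissues 3 genes were lower in the WT thymus (8.94%), of which Klf2 (-1.95 ± 0.37, adjusted p = 0.024) was lost without any one of the 4 libraries, and in KO 5 differed (21.0%), with S1pr1 lower in the thymus by 3.50 ± 0.17, Klf2 by 3.49 ± 0.34 and Klf3 by 1.61 ± 0.23, and Bcl6 higher by 3.22 ± 0.38. The KO difference was called different between tissues for 0 genes (2.36%) with edgeR. The count was 3 with DESeq2, 3 without a filter and 2 with the pool as a replicate block. The shares of all genes called under these settings are not given here, so no result about the 7 genes is read from these counts. In the edgeR fit Klf2 (1.55 ± 0.49), S1pr1 (1.22 ± 0.36) and Bcl6 (-2.65 ± 0.67) had an unadjusted p below 0.05.

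Cells whose leading Trgv gene was Trgv1 numbered 674 and 1059 in the WT and 172 and 264 in the KO spleen. Between KO and WT 5 genes differed in the spleen (35.7%) and 5 in the thymus (34.4%), between tissues 7 in WT (39.4%) and 6 in KO (26.8%), and the KO difference differed between tissues for 5 (24%). Klf2 differed by 0.18 ± 0.15 in the spleen (adjusted p = 0.37) and was lower in the KO thymus (-1.02 ± 0.15, adjusted p = 0.00028), S1pr4 was higher in the KO spleen (0.91 ± 0.18) and differed by 0.36 ± 0.21 in the thymus (adjusted p = 0.20), and Bcl6 fell by 4.23 ± 0.27 in the spleen. The thymic calls of Foxo1 (-0.29 ± 0.11, adjusted p = 0.047) and Bcl6 (-0.54 ± 0.16, adjusted p = 0.019) were both lost without thymus WT replicate 1, thymus WT replicate 2 or thymus KO replicate 1, with adjusted p from 0.070 to 0.31, and that of Foxo1 also without KO replicate 2 (adjusted p = 0.092) and with the pool as a replicate block (adjusted p = 0.057).

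CD24 marks immature γδ T cells of the thymus. Cells with a Cd24a UMI were 22.6% of WT and 5.6% of KO thymic γδ T cells, on average over 2 libraries each. Among cells without a Cd24a UMI, all 7 genes differed between KO and WT in the thymus (55.6% of all genes) and 6 in the spleen (61.5%), with Klf2 at 358 ± 74 CPM in WT and 129 ± 38 CPM in KO thymus (-1.33 ± 0.21, adjusted p = 0.0015) and S1pr1 at 79.0 ± 18 and 29.0 ± 12 CPM (-1.31 ± 0.27, adjusted p = 0.0069). Between tissues 7 differed in WT (49.9%) and 6 in KO (43.1%), and the KO difference differed for 5 (33.6%), where Klf3 (-0.76 ± 0.24, adjusted p = 0.047) was lost without any of 6 libraries. The splenic S1pr1 call in this class (-0.81 ± 0.26, adjusted p = 0.035) was lost without any one of the 4 splenic libraries, with the pool as a replicate block (adjusted p = 0.089) and without a filter (adjusted p = 0.12). Among thymic cells with a Cd24a UMI the order was the other way round, and Klf2 was at 174 ± 15 CPM in WT and 419 ± 8.5 CPM in KO (1.28 ± 0.29, adjusted p = 0.024) and S1pr1 at 21.6 ± 3.0 and 51.2 ± 6.2 CPM (1.25 ± 0.27, adjusted p = 0.018). With Foxo1 and S1pr4, 4 of 7 genes were higher in this class (8.53% of all genes), but leaving out any one of the 4 thymic libraries brought the count to 0 or 1, and the KO libraries held only 440 and 356 such cells. Without cycling cells the differences of S1pr1 (0.26, adjusted p = 0.37) and Foxo1 (0.17, adjusted p = 0.43) were not called. In this class 5 genes differed between KO and WT in the spleen (16.5%), where the KO libraries held 76 and 73 such cells, 6 between tissues in WT (26.1%), 5 in KO (21.2%), and 3 in their KO difference (5.08%). The last count was 6 with the pool as a replicate block and 6 without a filter, and the shares of all genes under these settings are not given here. Leaving out 1 library brought the splenic count to between 3 and 6, and the count between KO tissues to 3 without spleen KO replicate 2 or thymus KO replicate 1.

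Cells with a UMI of Mki67 or Top2a, called cycling here, made up 6.3% and 4.3% of WT and 21.7% and 21.2% of KO splenic cells, 39.2% and 42.2% of WT and 25.2% and 22.2% of KO thymic γδ T cells, and 55.1% and 52.3% of WT and 40.9% and 45.7% of KO DN cells. The summed level of both genes in the spleen was 39.1 to 63.2 CPM in WT and 52.0 to 63.3 CPM in KO, ranges that overlapped, so that no change of cycling is read from the share. Bcl6 was lower in cycling than in other cells in all 12 libraries, at a median ratio of 0.62 in the spleen, 0.73 in the thymus and 0.45 in DN cells. S1pr4 was lower in cycling cells of all 8 thymic and DN libraries but higher in all 4 splenic ones, at a median of 1.13. Since the label did not follow the summed level in the spleen, what it marks there is open. This also holds where splenic cycling cells were left out.

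The wider pathway was read from fixed lists of genes, and the counts of each list stand against the 54.7%, 49.7% and 23.0% of all genes that were called in the spleen, in thymic γδ T cells and in DN cells. Of 11 genes of lymphoid homing and retention, 4 were higher and 4 lower in KO splenic cells, 7 higher and 4 lower in KO thymic γδ T cells, and 8 higher and 1 lower in KO DN1-DN3 cells, with median log2 differences of 0.35, 1.14 and 1.41 against 0.00, 0.00 and -0.02 over all genes. Ccr9, the receptor for gut and thymus homing, and Ccr7, that for lymph nodes, fell by 4.57 ± 0.20 and 4.35 ± 0.20 in the spleen. Outside the spleen their values were picked after they were seen. Ccr9 went from 941 and 806 CPM to 205 and 144 CPM in KO thymic γδ T cells and from 90.6 and 87.8 CPM to 38.5 and 27.6 CPM in KO DN cells. Ccr7 went from 30.5 and 28.9 CPM to 16.3 and 10.6 CPM in KO thymic γδ T cells, but from 0.66 and 0.71 CPM to 5.21 and 4.66 CPM in KO DN cells. Cxcr6, a tissue retention receptor, rose by 3.25 ± 0.39 in the spleen, 4.63 ± 0.42 in the thymus and 3.83 ± 0.41 in DN cells. Itgae (CD103) rose by 3.07 ± 0.31 in the thymus and 3.43 ± 0.32 in DN cells, and Cd44 by 3.49 ± 0.38 and 2.89 ± 0.38. The 2 KO DN libraries differed, at 261 and 106 CPM for Itgae, 333 and 104 for Cxcr6 and 136 and 49.8 for Cd44. Trac, at 154 and 65.6 CPM in them, was likewise higher in replicate 1.

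**Figure D4:**
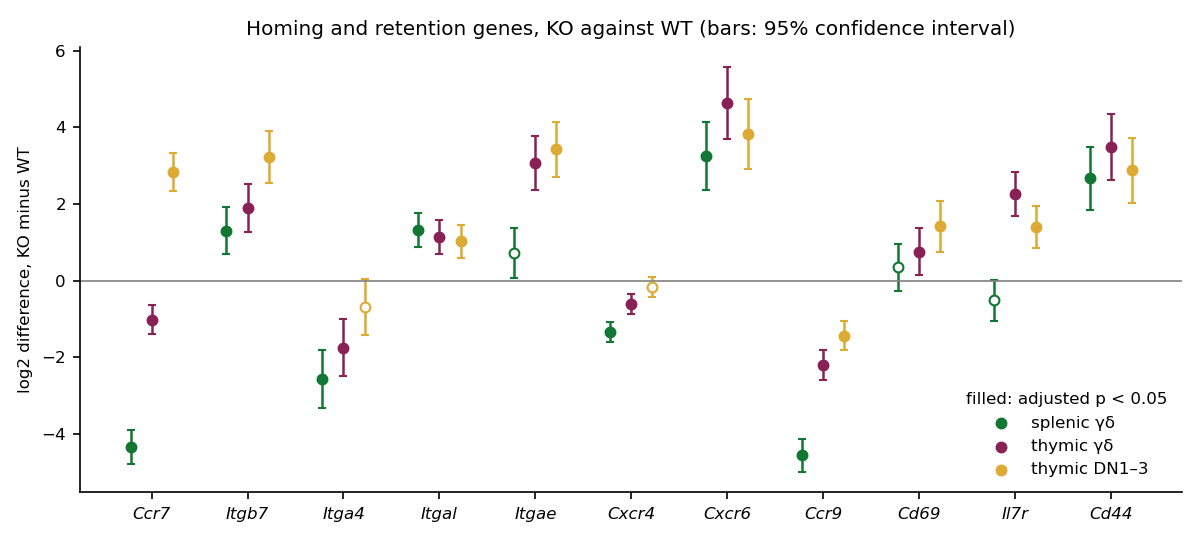
Difference between KO and WT on the log2 scale, with its 95% confidence interval, for 11 genes of lymphoid homing and retention in splenic γδ T cells (green), thymic γδ T cells (purple) and DN1-DN3 cells (yellow), where filled points passed an adjusted p of 0.05. Ccr7 and Ccr9 lie at -4.35 and -4.57 in the spleen, and Cxcr6 lies above 3 in all 3 compartments.

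Of 12 genes for other S1P receptors and S1P metabolism, 4 were higher and 3 lower in the KO spleen, 4 higher and 2 lower in KO thymic γδ T cells, and 3 higher and 1 lower in KO DN cells (medians -0.66, -0.01 and -0.10). Sgpl1, the lyase that breaks down S1P, rose in both γδ T compartments, by 0.68 ± 0.12 and 1.12 ± 0.13. S1pr3, singled out after its values were seen, went from 0.119 and 0.42 CPM to 14.4 and 12.8 CPM in the spleen and from 0.271 and 0.405 CPM to 14.8 and 14.9 CPM in the thymus, and was lower in KO DN cells (1.505 and 1.17 against 0.24 and 0.21 CPM). S1pr5, an egress receptor of NK and effector cells chosen in the same way, was at 1.83 and 2.05 CPM in the WT and 0.53 and 0.30 CPM in the KO spleen (-2.14 ± 0.38), where the NK and innate lymphoid list of 4 markers went from 96.7 and 114 CPM in WT to 9.95 and 10.8 CPM in KO. The part of such cells in this difference was not tested.

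Of 9 relatives in the KLF family, 5 were higher and 1 lower in the KO spleen, 5 higher in KO thymic γδ T cells and 4 higher in KO DN cells (medians 0.27, 0.58 and 0.19). Klf6 rose in all 3 compartments, by 0.67 ± 0.14, 1.38 ± 0.14 and 1.02 ± 0.15, and Klf10 rose by 1.52 ± 0.14 in the spleen. Of 10 forkhead relatives tested, 1 was higher and 3 lower in the spleen, 2 higher and 3 lower in the thymus and 2 higher in DN cells (medians -0.15, 0.14 and -0.02), and Foxp4 fell by 0.38 ± 0.13 and 0.48 ± 0.13 in the 2 γδ T compartments. Of 14 genes of PI3K, AKT and FOXO signalling, 4 were higher and 5 lower in the spleen, 4 and 2 in the thymus and 3 and 3 in DN cells (medians 0.05, 0.10 and -0.07). Pik3ip1, an inhibitor of PI3K and a FOXO1 target, fell by 2.38 ± 0.09 in the spleen and by 0.39 ± 0.08 in DN cells, where Foxo1 itself rose. Inpp4b, a lipid phosphatase, fell by 2.31 ± 0.41 in the spleen and rose by 2.24 ± 0.41 in DN cells. Of 14 genes of migration signalling, 6 were higher and 2 lower in the spleen, 3 and 4 in the thymus and 3 and 0 in DN cells (medians 0.24, -0.03 and 0.22), and Dock2, which activates Rac in migrating lymphocytes, rose by 0.77 ± 0.16, 0.96 ± 0.16 and 0.87 ± 0.16.

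Of 9 partners and opponents of BCL6 tested, 3 were higher and 3 lower in the KO spleen, 4 higher and 2 lower in KO thymic γδ T cells and 1 higher in KO DN cells (medians 0.03, -0.11 and 0.10). Prdm1 (BLIMP1), which BCL6 and BACH2 repress, rose from 4.54 and 3.93 CPM to 42.6 and 37.8 CPM in the spleen (3.35 ± 0.33). Bach2 went from 399 and 382 CPM to 31.2 and 32.7 CPM there (-3.52 ± 0.19) and fell by 1.58 ± 0.17 in KO thymic γδ T cells. The lower Bcl6 of the spleen thus stood beside lower Bach2 and higher Prdm1 in the same libraries. Prdm1 was also higher in KO thymic γδ T cells, at 1.36 and 1.26 CPM in WT and 22.1 and 19.7 CPM in KO. In DN cells it went from 0.29 and 0.47 CPM to 7.89 and 3.11 CPM, while Bach2 overlapped between genotypes. Bcl6 differed by -0.58 in thymic γδ T cells and, uncalled, by -0.27 in DN cells. These values were picked after they were seen, and a link between the genes was not tested.

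Over the 12 libraries, the gene whose log2 CPM was most like that of Klf2 among 6727 genes was S1pr1 (Pearson's r = 0.980), followed by Klf7 (0.967) and Rasa3 (0.958). S1pr1 was most like Otulinl, Gimap4 and Bin2 (each 0.982), Foxo1 most like Ablim1 (0.989), Txk (0.983) and Kdm7a (0.977), and S1pr4 most like Nt5c (0.992) and Rhof (0.991). Bcl6 came closest to Pgs1 (0.974), Foxp1 to Bicdl1 (0.987) and Klf3 to A630001G21Rik (0.975). Among the 7 genes themselves the closest pairs after Klf2 and S1pr1 were Bcl6 and Foxp1 (0.941) and Klf2 and S1pr4 (0.921), while Klf2 and Klf3 were not alike (-0.15). The 12 libraries fall into 6 groups and WT and KO libraries share pools, so these values describe the libraries and carry no p.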

How the data were processed

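Single-cell 3′ RNA-seq (10x, droplets) was deposited as raw UMI counts per gene and barcode. The authors made the counts with Cell Ranger 8.0.1 on GRCm39, as the submitters' processing notes list them, and separated WT from KO cells by hashtag before they deposited 1 count matrix per library. From these counts, cells with under 500 UMIs, under 200 genes or over 20% mitochondrial UMIs were left out, as in the study, which kept 96911 of 97404 barcodes. No doublet caller was run here, since hashtag demultiplexing by the authors removes doublets between WT and KO cells but not those within a genotype. Ribosomal, Gm-numbered and mitochondrial genes, 9538 in all, stayed out of the tests.

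Counts were summed per library, and all 12 libraries were fitted as 6 groups with edgeR 4.0.16 (R 4.3.3; TMM factors, filterByExpr, robust quasi-likelihood F test, two-sided), with Benjamini-Hochberg adjustment over 14921 genes and a threshold of 0.05. Every p in the text that is not named otherwise comes from this fit, or, within a class of cells, from the same fit on the 8 γδ T libraries for classes of at least 20 cells per library. Those of DN3-stage cells come from a fit of the DN libraries alone. Fitted log2 differences carry a SE, and ± beside a level is the SD over 2 libraries. CPM are UMIs scaled to the library total without TMM factors. Shares of cells were compared with the exact permutation test. DESeq2 1.42.0, other scalings, no filter, a replicate block, other cell sets and leaving out each library were the alternatives. On counts simulated for the splenic comparison, the fit over 14921 genes called 96% of 100 genes changed by 1 on the log2 scale, 100% of 100 changed by 2, and 0.077% of unchanged genes. The simulation had a constant dispersion and no pool effect, and changed only well-counted genes in the splenic KO group. These rates therefore need not hold for the data.

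Libraries were grouped by the tissue and hashtag genotype of their labels, and WT and KO libraries of a pool shared 1 droplet run. Deviations from the group means within a pool correlated at 0.55 in the spleen, 0.06 in the thymus and 0.43 in DN cells over 6728 genes, and with 2 pools per compartment the pairing rests on the shared run. The 7 genes and the lists were chosen with earlier results of these data known. All 7 are named throughout, and other genes come from lists fixed with them, at most 4 per list and comparison, by size of change among those that passed at a mean of at least 20 CPM. Genes named outside that rule are said to be. A planned division of cells by 1 marker list, with its alternatives, and a few of the listed genes are not reported here.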

Additional observations from a re-analysis of the deposited data

Results flagged for a closer look

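The KO difference in splenic γδ T cells departed from that in thymic γδ T cells for 5 of the 7 genes, tested as a contrast of the edgeR fit. The gap on the log2 scale was 0.96 for Klf2 (adjusted p = 0.017), -1.25 for Klf3 (adjusted p = 0.0030), -1.32 for Foxo1 (adjusted p = 0.00024), -4.12 for Bcl6 (adjusted p = 3.1e-06) and -1.24 for Foxp1 (adjusted p = 0.00018). The Klf2 call was lost without spleen WT replicate 1 (0.85, adjusted p = 0.067), thymus WT replicate 2 (0.74, adjusted p = 0.10) or thymus KO replicate 2 (0.75, adjusted p = 0.053), and the Klf3 call without cycling cells (-0.59, adjusted p = 0.16). Within Trgv6-called cells none of the 5 gaps passed with edgeR, at 1.55 for Klf2, 0.57 for Klf3, -0.08 for Foxo1, -2.65 for Bcl6 and -0.16 for Foxp1. Of all 7 genes 3 passed with DESeq2, 3 without a filter and 2 with the pool as a replicate block. The shares of all genes that passed under these settings are not given here. Within Trgv1-called cells all 5 passed, at 1.2003, -1.78, -1.41, -3.69 and -1.22 in the same order (adjusted p = 0.0016 or less). Splenic and thymic libraries also differ in sex mix. With thymic cells limited to those with Y-linked UMIs and no Xist, the calls of Klf2, Foxo1, Bcl6 and Foxp1 stayed and that of Klf3 was lost (-0.99, adjusted p = 0.25).

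The KO difference in DN1-DN3 cells departed from that in thymic γδ T cells for 5 genes, in a comparison added after the values were seen. The gap was 3.67 for Klf2 (adjusted p = 4.3e-05), 1.42 for Klf3 (adjusted p = 0.0023), 1.71 for Foxo1 (adjusted p = 0.00013), 4.65 for S1pr1 (adjusted p = 0.00061) and 0.44 for Foxp1 (adjusted p = 0.040). The Foxp1 call was lost in 6 of the 8 fits that left out 1 library (adjusted p from 0.056 to 0.13), without a filter (adjusted p = 0.069), with just the thymic γδ T and DN libraries fitted (adjusted p = 0.053) and among cells with Y-linked UMIs and no Xist (adjusted p = 0.071), where the Klf3 call was also lost (1.89, adjusted p = 0.054).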

How the results depend on the processing

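Of the values of the 7 genes in whole libraries under the alternatives, 977 kept direction and side of the threshold, 46 lost their call, 17 gained one and 24 turned in direction. The values that turned were all uncalled in the main fit except Bcl6 between WT thymic γδ T and DN cells, which went to -0.15 without cycling cells. With library totals, which move the median of all genes by -0.22 in the spleen and -0.11 in the thymus for KO against WT, Klf2 in the spleen went to -0.013, and the difference of tissue effects went to -0.11 for S1pr1 and -0.070 for S1pr4. S1pr1 in that comparison was also -0.028 with only its own libraries and -0.12 in cells with Y-linked UMIs and no Xist. Klf3 in DN cells (KO against WT) was -0.34 without cycling cells and -0.11 thinned, and Klf3 between KO tissues was -0.24 without cycling cells, -0.19 thinned and -0.27 in cells with Y-linked UMIs and no Xist. Between KO thymic γδ T and DN cells Klf2 was -0.091 without cycling cells and Bcl6 0.0025 with every deposited barcode. The share of splenic cells with Klf2 differed by 2.56 points unthinned and by 0.079 points at 1500 UMIs, and that of Foxp1 between WT tissues by 0.39 points unthinned. The cause was not tested.

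Leaving out 1 library moved Klf3 in DN cells from -0.055 to 0.16, Klf3 between KO tissues from -0.16 to 0.24, the difference of tissue effects of S1pr1 from -0.29 to 0.43 and of S1pr4 from -0.076 to 0.13, and, between KO thymic γδ T and DN cells, Klf2 from -0.016 to 0.44 and Bcl6 from -0.19 to 0.16. Counts of called genes in whole libraries stayed within 1 of the main count, except that WT thymic γδ T against DN cells went from 6 to between 4 and 5. The DN count was 3 in DN3-stage cells, and the count of genes whose KO difference departed between DN and thymic γδ T cells was 3 in cells with Y-linked UMIs and no Xist.

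Within classes the counts moved more, and they are given without the share of all genes called under each setting. For Trgv6-called cells they ran from 2 to 6 for the thymic KO difference and from 0 to 3 for the difference of tissue effects when 1 library was left out, the latter also being 3 with DESeq2, 3 without a filter and 2 with the pool as a replicate block, and 1 gene was called between WT tissues without cycling cells. In Trgv1-called cells the thymic count was 3 with DESeq2 and 3 to 4 with 1 library left out. In cells with Cd24a the count of tissue effects was 6 without a filter and 6 with the pool block (2 to 6 with 1 library left out), the splenic count 3 to 6, the thymic count 0 to 1 and the count between KO tissues 3 to 4.

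The pool as a replicate block changed 0 of 35 calls in whole libraries, and the replicate number as a block changed 1 of 28, Bcl6 between WT thymic γδ T and DN cells (0.30, adjusted p = 0.056). Within classes the pool block ended the calls of Foxo1 in KO thymic Trgv1-called cells (-0.29) and of S1pr1 in KO splenic cells without Cd24a (-0.81). Same-numbered libraries of different tissues did not deviate together throughout (r from -0.12 to 0.35). The precision within classes is limited by 2 libraries per group and by as few as 41 cells of a class in a library. Where 1 library of a group is left out, the lone one is assumed to vary like the other groups.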
